A study of Mus musculus with 7 samples.

Results

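Fc gamma receptors bind the constant part of IgG. The set described here holds 5 of the 33696 genes measured, chosen by symbol: *Fcgr1*, *Fcgr3* and *Fcgr4*, which encode the activating receptors FcγRI, FcγRIII and FcγRIV; *Fcgr2b*, which encodes the inhibitory receptor FcγRIIB; and *Fcer1g*, which encodes the common gamma chain, an adaptor and not itself an IgG receptor. The data were single-cell RNA profiles of 7 mouse tumors, 1 library per tumor, in which each transcript is tagged with a unique molecular identifier (UMI). JW23.3, a single malignant peripheral nerve sheath tumor (MPNST) cell line that lacks *Nf1* and *Trp53*, was implanted under the skin of wildtype female C57/B6 mice aged 5 to 6 weeks. Mice were randomized on day 7, 4 of the tumors received focal irradiation as 5 daily fractions of 2 Gy, 3 were left without radiation as controls, and all were harvested on day 21.

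An activating Fc receptor carries little signaling machinery of its own. The gamma chain paired with it holds the ITAM, a motif that Src-family kinases phosphorylate and that then recruits Syk, which leads to phagocytosis of IgG-coated cells and to cytokine release. FcγRIIB carries an ITIM in its own tail, recruits the phosphatase SHIP1 (*Inpp5d*) and dampens that signal, so the balance of the receptors on a macrophage is known to set its response to antibody. Interferon-gamma is a classical inducer of FcγRI in macrophages, and natural killer (NK) cells of the mouse use FcγRIII.

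*Fcgr2b* (ENSMUSG00000026656), *Fcgr4* (ENSMUSG00000059089), *Fcgr3* (ENSMUSG00000059498) and *Fcer1g* (ENSMUSG00000058715) lie close together on chromosome 1, and *Fcgr1* (ENSMUSG00000015947) lies on chromosome 3. In the RefSeq annotation of GRCm38.p6 their spans are chr1:170960558-170976071, chr1:171018926-171029761, chr1:171051169-171065915, chr1:171229572-171234349 and chr3:96282909-96293969. *Fcgr3* and *Fcgr2b* are close relatives. Of the 31-base words in the transcripts of *Fcgr3*, 14.3% also occurred in *Fcgr2b*. In the last 500 bases, from which a 3′ assay mostly reads, the share was 0.521%, and of those of *Fcgr2b* 5.10% occurred in *Fcgr3*, so a few reads of this pair could be split or lost. No other pair of the 5 genes shared a word.

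The 250 bases before the RefSeq start of *Fcgr1* and *Fcgr4* are printed because these genes had the widest spread between macrophage gates. Sequences come from RefSeq GRCm38.p6 and run 5′ to 3′ on the gene's own strand. *Fcgr1* is read from the minus strand at chr3:96293970-96294219 and *Fcgr4* from the plus strand at chr1:171018676-171018925.
Fcgr1: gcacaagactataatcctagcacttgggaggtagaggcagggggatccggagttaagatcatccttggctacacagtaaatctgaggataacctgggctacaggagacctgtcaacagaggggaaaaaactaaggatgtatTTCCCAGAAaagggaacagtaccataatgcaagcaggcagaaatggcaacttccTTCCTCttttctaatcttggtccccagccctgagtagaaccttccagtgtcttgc
Fcgr4: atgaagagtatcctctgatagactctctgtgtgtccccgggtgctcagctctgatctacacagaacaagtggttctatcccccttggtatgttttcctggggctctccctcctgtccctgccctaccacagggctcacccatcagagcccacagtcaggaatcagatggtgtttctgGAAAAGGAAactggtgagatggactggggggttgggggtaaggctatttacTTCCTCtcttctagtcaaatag
Capitals mark matches, on either strand, to 3 motifs. TTCNNNGAA is the gamma-activated site, GAAANNGAA is the core of the interferon-stimulated response element bound by IRF factors, and GAGGAA (read as TTCCTC from the other strand) is the core bound by the myeloid factor PU.1. *Fcgr1* held the gamma-activated site at bases -109 to -101 from its start and a PU.1 core at -55 to -50. *Fcgr4* held the response element core at -73 to -65 and a PU.1 core at -22 to -17. The *Fcgr3* promoter entries held only a PU.1 core, and those of *Fcgr2b* and *Fcer1g* held none of the 3 motifs in this window. Among 32851 promoters of the same length, 7.02% held a gamma-activated site, 7.13% the response element core and 23.3% the PU.1 core, and no marked match overlapped another. A match of letters was not tested as a binding site.

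The libraries held 2859 to 8452 cells, and 34296 cells in all were kept. Any pair of libraries shared 3 to 19 cell barcodes. The best split by cell number, depth, genes per cell and mitochondrial share put irradiated 1 and controls 2 and 3 in set 1. Set 2 held control 1 and irradiated 2, 3 and 4, so each set has both groups. This split was not sharp, and the measures disagreed. Control 1, the only control of set 2, had 6134 cells and a median mitochondrial share of 4.46%, nearer to the tumors of set 1. Irradiated 4 had a median of 9990 UMIs, against 9507 in irradiated 1. Whether the sets match batches is not given in the sources used here. Cells were assigned to gates by marker genes that include no Fc receptor. There were 10809 macrophages, 413 Ly6c2 monocytes, 245 dendritic cells, 46 NK cells, 1210 T cells and 14826 MPNST cells. Macrophages were divided into Mrc1 (6494 cells), Ms4a7 without *Mrc1* (1043), Cxcl9 (293), inflammatory (752), cycling (840) and osteoclast-like cells (169), with 1218 not placed further. Values of the genes that set the gates describe the gates and do not test them. *Ncr1* was 397 UMIs per 1000000 UMIs of the gate (CPM) in the NK gate against 7.87 in T cells. *Cxcl9*, which the Cxcl9 gate required, was 1279 there against 31.5 in the Mrc1 gate. *Cd3e* was at 0 in NK cells because that gate required its absence. The inflammatory gate was the weaker one, since *Chil3*, one of its markers, stood at 58.1 CPM there and at 582 in the monocyte gate. Cells with markers of more than 1 type (6.95% of kept cells, and 1026 of 5125 in control 1) and 3767 cells that met no gate were left out.

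Fc receptor transcripts came almost entirely from macrophages. Of the UMIs in gated cells, macrophages held from 93.9% for *Fcgr1* to 96.3% for *Fcgr2b*, and monocytes from 1.90% for *Fcgr3* to 4.73% for *Fcgr1*. Pooled over tumors, *Fcer1g* had 2935 CPM in macrophages, *Fcgr2b* 510, *Fcgr3* 326, *Fcgr1* 266 and *Fcgr4* 135. These count tagged 3′ ends, which do not scale with transcript length, although capture can differ between genes. MPNST cells had 0.632 CPM of *Fcgr1*, 0.424 of *Fcgr4*, 1.64 of *Fcgr2b*, 2.70 of *Fcgr3* and 11.3 of *Fcer1g*.

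Shares of cells were compared after every cell was thinned to 3000 UMIs, since median depth ran from 3344 UMIs in T cells to 22420 in MPNST cells. *Fcer1g* was detected in 99.7% of thinned Mrc1 macrophages and *Fcgr2b* in 75.4%. *Fcgr3* was found in 63.3% of them, *Fcgr1* in 45.0% and *Fcgr4* in 24.7% (exact 95% binomial interval 23.6 to 25.8%). Without thinning these shares were 99.7%, 90.2%, 82.7%, 67.8% and 41.7%. In the Cxcl9 gate *Fcgr4* reached 61.6% (55.6 to 67.4%) of thinned cells and 85.3% of cells as deposited. In T cells, which should lack the receptors, the thinned shares of the 4 receptor genes were 0.436% to 1.74% and that of *Fcer1g* was 13.2%. Intervals and lower limits cover counting error only.

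**Figure D1:**
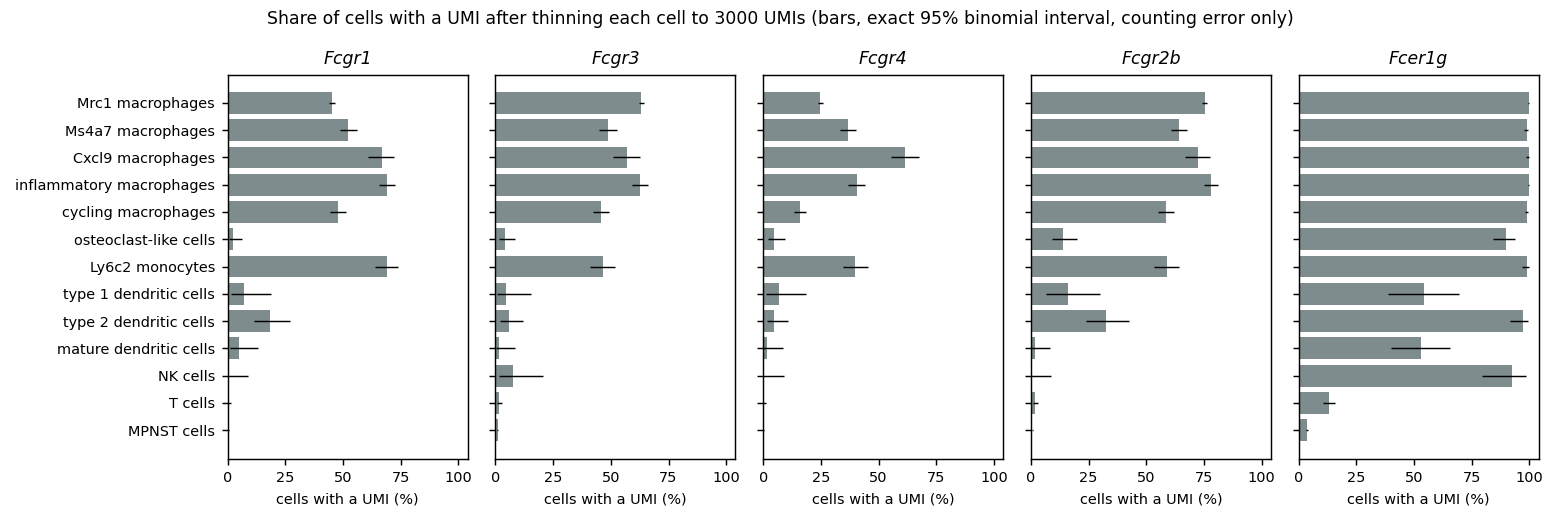
Share of cells in each marker gate with at least 1 UMI of the gene, in percent, after thinning to 3000 UMIs. Bars pool all tumors and lines are exact 95% binomial intervals. *Fcer1g* was at 98.9% or more in the macrophage gates other than osteoclast-like cells (89.8%) and at 92.5% in NK cells, whereas *Fcgr4* ran from 15.9% in cycling to 61.6% in Cxcl9 macrophages and 4.82% in osteoclast-like cells.

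The high-affinity receptor gene *Fcgr1* was highest in Ly6c2 monocytes, the blood-derived precursors of tumor macrophages. In the monocytes of irradiated tumors 2, 3 and 4 it stood at 532, 465 and 518 CPM, and in controls 1, 2 and 3 at 443, 443 and 491 CPM. Its order over gates was Ly6c2 monocytes, Cxcl9, inflammatory, Ms4a7, Mrc1 and cycling macrophages, dendritic cells, T cells, endothelial cells and MPNST cells. Each step between the first 6 gates was smaller than its SD over tumors. Against the Mrc1 gate of the same tumor, *Fcgr1* was higher in monocytes in 6 of 6 tumors, by 1.00 ± 0.379 (SD) on the log2 scale. It was also higher in the Cxcl9 gate in 7 of 7 tumors, by 0.78 ± 0.433, and in the inflammatory gate in 6 of 6, by 0.54 ± 0.0997. These 3 comparisons were picked from the order of levels and are given as descriptions.

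*Fcgr4*, which binds IgG2a and IgG2b, had another leading gate. It stood in the Cxcl9 macrophages of irradiated tumors 1 to 4 at 270.4, 282, 335 and 517 CPM, and of controls 1 to 3 at 397, 389.6 and 300.3 CPM. In Mrc1 macrophages it stood at 105, 137, 106 and 262 CPM in the irradiated tumors and at 109, 69.6 and 70.5 CPM in the controls. The Cxcl9 gate was thus the higher one in all 7 tumors, by 1.67 ± 0.570 (SD) on the log2 scale, and the smallest difference was 0.99. The next gate in its order was Ms4a7, below Cxcl9 in 7 of 7 tumors by 1.03 ± 0.578. Ms4a7, Ly6c2 monocyte and inflammatory gates followed each other with differences of 0.02 and 0.10. Cycling macrophages came last of these, below Mrc1 in 7 of 7 tumors by 0.78 ± 0.393. The Cxcl9 gate was set on *Cxcl9*, *Cxcl10*, *Gbp5*, *Iigp1* and *Fgl2*, most of which interferon-gamma induces.

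The low-affinity pair *Fcgr3* and *Fcgr2b* had its highest mean log2 level in Mrc1 macrophages, but the inflammatory gate was close. *Fcgr2b* was lower there in 4 of 6 tumors, by 0.14 ± 0.289 (SD) on the log2 scale, and *Fcgr3* in 6 of 6, by 0.13 ± 0.143. Neither step exceeded its SD, and pooled *Fcgr3* was 375 CPM in both gates. In the Mrc1 gate mean *Fcgr3* was 392 ± 39.6 CPM (SD, n = 4) in irradiated and 356 ± 44.0 (n = 3) in control tumors. Mean *Fcgr2b* in the same gate was 580 ± 60.7 and 563 ± 67.9 CPM. Monocytes were below the Mrc1 gate in 6 of 6 tumors for both, by 0.72 ± 0.0898 (SD) on the log2 scale for *Fcgr3* and 0.55 ± 0.312 for *Fcgr2b*. Cycling macrophages were below it in 7 of 7 tumors, by 0.77 ± 0.167 and 0.75 ± 0.114. For *Fcer1g* the monocytes and the macrophage gates other than osteoclast-like cells ran from a mean log2 CPM of 11.3 in cycling to 11.7 in Cxcl9 macrophages. Cycling macrophages were below the Mrc1 gate in 7 of 7 tumors for this gene too, by 0.31 ± 0.131.

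Over 45 neighboring pairs in the 5 orders, an exact two-sided sign-change test within tumors gave adjusted p values of 0.067 or more, so no single step passed 0.05. The smallest p that the test allowed was 0.0156 with 7 tumors and 0.03125 with 6. Steps in which all tumors went the same way were at this limit, so the adjusted value of 0.067 does not measure their size. Dendritic cells were below cycling macrophages in 6 of 6 tumors for every gene. The step was 3.24 ± 0.551 (SD) on the log2 scale for *Fcgr3*, 2.49 ± 0.551 for *Fcgr1* and 1.92 ± 0.315 for *Fcgr2b*. It was 1.84 ± 0.376 for *Fcer1g* and 1.81 ± 1.06 for *Fcgr4* (adjusted p = 0.067 by the exact sign-change test for each gene). The *Fcgr4* step was small in control 1, with 68.3 CPM in cycling macrophages and 44.4 in dendritic cells.

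**Figure D2:**
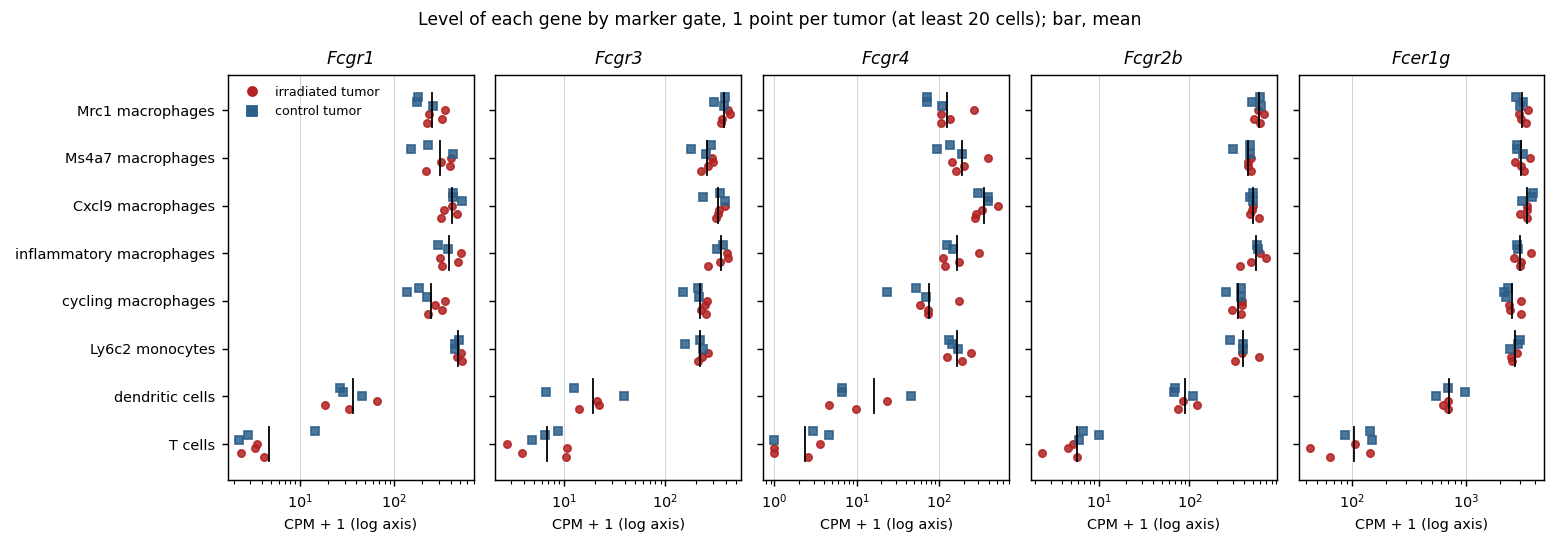
Level of each gene (CPM + 1, log axis) in 8 gates. Each point is 1 tumor with at least 20 cells in the gate, circles are irradiated and squares control tumors, and the bar is the mean. *Fcgr4* is furthest right in Cxcl9 macrophages and *Fcgr1* in Ly6c2 monocytes, while *Fcer1g* varies least across macrophages and monocytes.

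Osteoclast-like cells had less of the adaptor than Mrc1 macrophages and little of the receptors. All 169 of these cells had an *Fcer1g* UMI, and 89.8% of them did after thinning. Pooled *Fcer1g* was 1164 CPM (exact Poisson interval 1125 to 1205), against 3072 in the Mrc1 gate. *Fcgr1* was at 11.6 CPM (7.98 to 16.3), *Fcgr4* at 14.0 (10.0 to 19.1), *Fcgr3* at 20.7 (15.8 to 26.7) and *Fcgr2b* at 60.7 (52.0 to 70.5). The gate was set on *Acp5*, *Ctsk*, *Mmp9* and other osteoclast genes, and the gamma chain is known to serve other receptors in osteoclasts. The controls held 21, 69 and 39 such cells and the irradiated tumors 12, 7, 16 and 5, too few for a test of the genes.

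Dendritic cells differed by type. Type 2 dendritic cells (120 cells, *Cd209a* at 403 CPM) had *Fcer1g* at 1076 CPM pooled, *Fcgr2b* at 159 (136 to 184) and *Fcgr1* at 62.9 (48.9 to 79.6). Type 1 dendritic cells (49 cells, *Xcr1* at 310 CPM) had *Fcgr2b* at 40.6 CPM (27.0 to 58.6), and mature dendritic cells (76 cells) had 6 UMIs of it (4.04 to 23.9 CPM). The intervals of the 3 types did not overlap for *Fcgr2b*, an interval of counting error and not of tumors. Plasmacytoid cells (26 cells) had *Fcer1g* at 879 CPM and 0 UMIs of *Fcgr1*, *Fcgr3* and *Fcgr4*, which allows up to 18.2 CPM.

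NK cells carried *Fcer1g* and some *Fcgr3*. Over 46 cells, *Fcer1g* had 576 UMIs, or 1554 CPM, and every cell had at least 1. *Fcgr3*, the receptor by which mouse NK cells kill antibody-coated targets, had 14 UMIs in 9 cells, or 37.8 CPM (20.7 to 63.4), against 5.37 (3.57 to 7.76) in T cells. Mrc1 macrophages had 375 CPM. After thinning, 3 of 40 NK cells (1.57 to 20.4%) and 11 of 688 T cells (0.801 to 2.84%) had an *Fcgr3* UMI, and these intervals overlapped. *Fcgr1* and *Fcgr4* had 0 UMIs in NK cells, which allows up to 8.09 CPM. The 14 *Fcgr3* UMIs came from irradiated 3, irradiated 4 and control 3, with 3, 9 and 2, and the other 4 tumors had none in 2 to 9 cells. No group comparison was made, since no tumor had 20 NK cells. The 54 neutrophils had *Fcgr3* at 234 CPM (165 to 321) and *Fcgr4* at 98.4 (56.2 to 160).

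The comparison the study was designed for sets irradiated against control tumors. In macrophages, mean *Fcgr4* was 162 ± 85.8 CPM (SD, n = 4) after irradiation and 87.8 ± 27.4 (n = 3) in controls, and mean *Fcgr1* was 306 ± 83.4 and 206 ± 62.5. *Fcgr3*, *Fcgr2b* and *Fcer1g* were closer. None of the 5 genes passed the test over all genes (edgeR's quasi-likelihood test on UMIs summed per tumor, Benjamini-Hochberg adjusted p under 0.05). Few genes did, since 1 of 13002 was called, or 0.00769%. That gene was *Mecom*, at 2.25 CPM in irradiated and 10.2 in control tumors, named after its value was seen. At an unadjusted p under 0.05 there were 861 genes.

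*Fcgr4* in the macrophages of irradiated tumors 1 to 4 stood at 109, 140.3, 110.4 and 289 CPM, and in controls 1 to 3 at 119, 69.1 and 75.0 CPM. Irradiated 4 was far above the rest, and control 1 lay among the irradiated tumors. The log2 fold change was 0.88 ± 0.39 (SE), with an adjusted p of 0.741 from edgeR and a two-sided exact permutation p of 0.171. Without irradiated 4 it was 0.44. Within set 1 the difference in log2 CPM was 0.60, and within set 2 it was 0.47.

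*Fcgr1* stood at 219.8, 351, 254 and 399 CPM in irradiated tumors 1 to 4 and at 278, 161 and 181 CPM in controls 1 to 3. The groups overlapped through control 1, which was above 2 irradiated tumors. The log2 fold change was 0.56 ± 0.26 (SE; edgeR adjusted p = 0.751), and the exact permutation p was 0.143. The within-set differences were 0.37 and 0.25.

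The other 3 genes had smaller differences. *Fcgr3* had a log2 fold change of 0.18 ± 0.13 (SE), *Fcer1g* of 0.14 ± 0.11 and *Fcgr2b* of 0.08 ± 0.13, with edgeR adjusted p values of 0.787, 0.809 and 0.898. The within-set differences were 0.20 and 0.09 for *Fcgr3*, 0.25 and 0.10 for *Fcer1g*, and 0.27 and -0.10 for *Fcgr2b*.

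**Figure D3:**
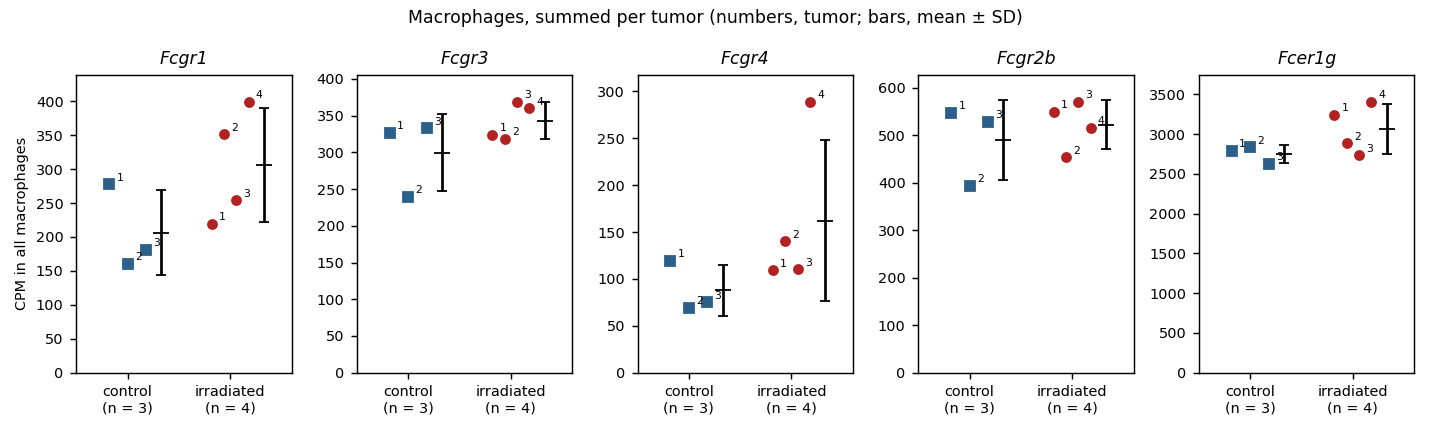
CPM of each gene in all macrophages of a tumor. Numbers are the tumors, and bars to the right of each group are mean ± SD. Control 1 lies among the irradiated tumors for *Fcgr1* and *Fcgr4*, and irradiated 4 is highest for both (399 and 289 CPM).

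The makeup of the macrophages moved with these values. Cxcl9 cells made up 2.20%, 3.15%, 4.50% and 8.21% of macrophages in irradiated tumors 1 to 4 and 2.74%, 0.963% and 0.853% in controls 1 to 3, and the groups overlapped through control 1. Inflammatory cells made up 1.45%, 11.3%, 12.04% and 24.8% in irradiated tumors 1 to 4 and 11.2%, 0.754% and 1.49% in controls 1 to 3, high in the tumors of set 2 and low in those of set 1. Summed markers of Ly6c2 monocytes in the macrophage gate ran from 192 to 642 CPM in irradiated and 228 to 320 CPM in control tumors. Summed T cell markers (10 genes, up to 3 of them at 0) ran from 5.20 to 18.2 CPM and from 8.41 to 16.1 CPM. The part of these shifts in the result was not tested. Within the Mrc1 gate alone the log2 fold change was 0.85 ± 0.36 (SE) for *Fcgr4* and 0.45 ± 0.20 for *Fcgr1* (edgeR adjusted p = 0.869 for both). The differences within sets were 0.58 and 0.52 for *Fcgr4* and 0.33 and 0.21 for *Fcgr1* in that gate.

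Between macrophage gates the 2 genes differed in another way. Inside the Cxcl9 gate *Fcgr1* was 383 ± 70.1 CPM (SD, n = 4) in irradiated and 460 ± 59.0 (n = 3) in control tumors, a log2 fold change of -0.31 ± 0.19 (SE; edgeR adjusted p = 0.999). *Fcgr4* there was 351 ± 114 and 362 ± 53.9 CPM, a log2 fold change of -0.06 ± 0.23. Within sets the differences were -0.46 and -0.40 for *Fcgr1* and -0.37 and -0.12 for *Fcgr4*. In controls *Fcgr4* was thus 2.19 log2 units higher in the Cxcl9 than in the Mrc1 gate, and in irradiated tumors 1.28. This change in the gap between gates was -0.91 for *Fcgr4* and -0.77 for *Fcgr1*. The exact permutation p was 0.0286 for each, the smallest that 35 splits of the tumors allow, and 0.357 after adjustment over 25 combinations of gene and gate. These values rest on few cells. The Cxcl9 gate held 32, 23 and 20 cells in controls 1 to 3, with 191, 45 and 40 *Fcgr4* UMIs and 254, 49 and 57 *Fcgr1* UMIs.

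Cycling macrophages had the clearest separation. *Fcgr3* stood there at 249.7, 227, 246 and 256 CPM in irradiated tumors 1 to 4 and at 213, 149 and 209.7 CPM in controls 1 to 3, with no overlap. *Fcgr1* was at 228, 320.2, 269 and 349 CPM against 225, 136 and 184, so that the groups did not overlap on this scale but irradiated 1 and control 1 nearly met. The log2 fold changes were 0.35 ± 0.14 (SE; edgeR adjusted p = 0.726, exact permutation p = 0.0286) for *Fcgr3* and 0.68 ± 0.19 (edgeR adjusted p = 0.686, exact permutation p = 0.0571) for *Fcgr1*. With no filter on low counts the *Fcgr1* value was 0.68 with an edgeR adjusted p of 0.00255, the one setting under which a member was called. That setting called 88 of 18738 genes in this gate, against 0 of 9705 with the filter. *Fcer1g* also did not overlap, at 2392 to 3027 CPM against 2162 to 2352, so that 3 of the 5 genes were separated on CPM. After TMM scaling, the scale of the background, 2 of the 5 (*Fcgr3* and *Fcer1g*) had every irradiated tumor above every control, as 3.43% of the 9705 genes tested there did. Within sets the *Fcgr3* difference was 0.50 and 0.19, and the *Fcgr1* difference 0.53 and 0.46. This gate was singled out after its values were seen.

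In all other classes no gene of the set had non-overlapping groups in that direction, where the background was 2.48% of genes in all macrophages, 2.65% in Mrc1, 2.33% in Ms4a7, 4.37% in Cxcl9 and 5.44% in inflammatory macrophages, 8.45% in Ly6c2 monocytes and 4.69% in dendritic cells. With the count filter, edgeR called no tested member in any class either. The share of all genes called was 0.0271% in Ms4a7 macrophages, 0.0437% in monocytes and 0% in Mrc1, Cxcl9, inflammatory and cycling macrophages and in dendritic cells. At an unadjusted p under 0.05, edgeR had 400, 198, 659, 189, 205, 609 and 173 genes in these 7 classes, in the same order. DESeq2 called 4, 5, 34, 0, 0, 18 and 1, none of them a member.

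In Ly6c2 monocytes the 5 genes were tested in 3 irradiated and 3 control tumors, since irradiated 1 had only 11 such cells. *Fcgr4* was at 189, 126 and 244 CPM in irradiated 2, 3 and 4 and at 167, 143 and 129.6 CPM in the controls. Its log2 fold change was 0.34 ± 0.27 (SE), and that of *Fcgr1* was 0.12 ± 0.21 (edgeR adjusted p = 0.9995 for both). Within set 2 the difference in log2 CPM was 0.11 for *Fcgr4* and 0.18 for *Fcgr1*, and set 1 held controls only. The exact permutation test could not go below p = 0.1 here. In dendritic cells *Fcgr2b*, *Fcer1g* and *Fcgr1* passed the count filter, with log2 fold changes of 0.10 ± 0.30, -0.19 ± 0.22 and 0.25 ± 0.45 (SE). *Fcgr3* and *Fcgr4* did not pass it, with 1 to 15 UMIs per tested tumor. Irradiated 2, with 15 dendritic cells, was left out.

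The balance of activating to inhibitory transcripts was taken per tumor as log2 of the summed *Fcgr1*, *Fcgr3* and *Fcgr4* UMIs over *Fcgr2b* UMIs. Among the 6 gates compared, it was lowest in Mrc1 macrophages, with a mean of 0.37 ± 0.286 (SD, n = 7). It was highest in Ly6c2 monocytes (1.20 ± 0.431, n = 6) and Cxcl9 macrophages (1.14 ± 0.262, n = 7). Osteoclast-like cells, dendritic cells and macrophages not placed further were not compared. Pooled osteoclast-like cells had 33, 59 and 40 UMIs of *Fcgr1*, *Fcgr3* and *Fcgr4* and 173 of *Fcgr2b*. For pooled dendritic cells these were 97, 45, 37 and 208. In the macrophages of irradiated tumors 1 to 4 the ratio itself was 1.19, 1.79, 1.29 and 2.03, and in controls 1 to 3 it was 1.32, 1.19 and 1.12. Irradiated 2 and 4 were above every control, and irradiated 1 and 3 lay among them. On the log2 scale the means were 0.62 ± 0.371 (SD, n = 4) and 0.27 ± 0.123 (n = 3), a difference of 0.35 with a two-sided exact permutation p of 0.286. The difference was 0.04 within set 1 and 0.34 within set 2. With *Fcgr4* alone over *Fcgr2b* it was 0.70. In monocytes the means were 1.18 ± 0.587 (n = 3) and 1.22 ± 0.345 (n = 3), a difference of -0.04 (exact permutation p = 0.9). In cycling macrophages all 4 irradiated tumors, from 0.58 to 1.09, were above the controls, from 0.29 to 0.45 (exact permutation p = 0.0857), with a difference of 0.28 within set 1 and 0.47 within set 2.

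**Figure D4:**
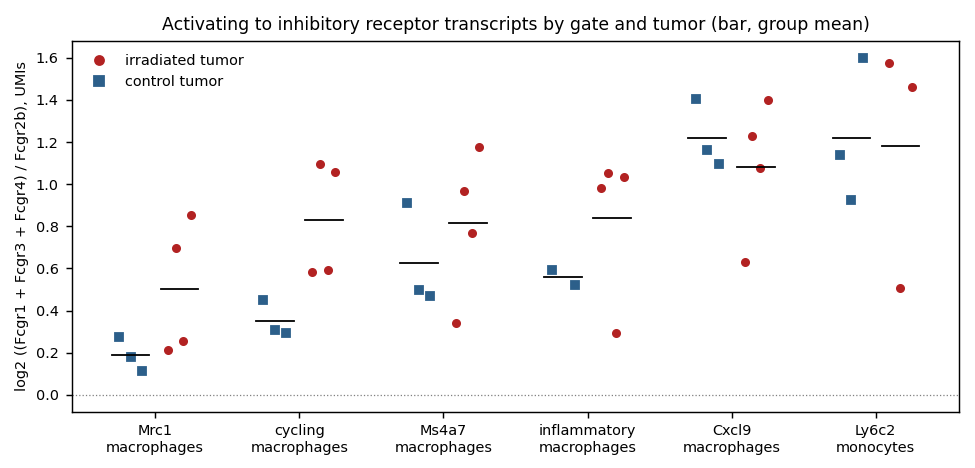
Log2 of activating (*Fcgr1*, *Fcgr3*, *Fcgr4*) over inhibitory (*Fcgr2b*) UMIs per tumor in 6 gates. Bars are group means. The ratio is lowest in Mrc1 macrophages and highest in Cxcl9 macrophages and Ly6c2 monocytes, and the groups separate in cycling macrophages, where irradiated tumors lie at 0.58 or above.

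Genes of the receptor pathway were examined in macrophages from 4 lists. None of their genes passed the edgeR test. Of all 13002 genes tested, 6395 had a positive log2 fold change. Of 23 activating ITAM signaling genes, 19 had a positive log2 fold change, with a median of 0.09, and the values included 0.53 ± 0.32 (SE) for the Src-family kinase gene *Fgr* and 0.28 ± 0.14 for *Dock2*, which encodes a Rac activator. Of 14 inhibitory ITIM signaling genes, 13 were positive, with a median of 0.14. The adaptor *Dok2* had 0.39 ± 0.20, *Pirb*, an inhibitory receptor for MHC class I, 0.28 ± 0.16, and the sialic acid receptor *Cd33* -0.26 ± 0.23. Of 13 other Fc receptor genes 7 were measured above the filter, led by *Trim21*, a cytosolic antibody receptor (0.65 ± 0.27), and by *Fcrl5* (0.60 ± 0.67) and *Fcrl1* (-0.50 ± 0.56). The median over the 5 Fc receptor genes was 0.18 and over all genes 0.00.

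The interferon-gamma induced list stood apart in size. Of its 20 measured genes, 19 had a positive log2 fold change, the median was 0.85, and 10 had an unadjusted edgeR p under 0.05, all positive, but none passed adjustment. Over all 13002 genes, 382 were positive at that p, 479 were negative at it, and 6395 had a positive value at any p. The chemokine gene *Cxcl9* had 1.36 ± 0.69 (SE), and the guanylate-binding protein genes *Gbp2* and *Gbp4* had 1.08 ± 0.51 and 1.01 ± 0.55. These 3 genes had the largest fold changes of the list, but none of them was among the 10 counted above. As a mean log2 CPM over the 20 genes, the list was at 4.92, 5.36, 5.43 and 6.15 in irradiated tumors 1 to 4 and at 5.14, 4.46 and 4.49 in controls 1 to 3 (exact permutation p = 0.0857).

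Over the 7 tumors, *Fcgr4* and *Fcgr1* in macrophages were correlated with this list. For *Fcgr4* Pearson's r was 0.959 (permutation p = 0.00258, adjusted 0.0086) and Spearman's rho 0.893 (permutation p = 0.0123, adjusted 0.0308). For *Fcgr1* r was 0.930 (permutation p = 0.00377, adjusted 0.00942) and rho was 0.893 (permutation p = 0.0123, adjusted 0.0308). Without irradiated 4 and control 2, the tumors farthest from the median of the list, r was 0.864 and 0.845. For *Fcgr3*, *Fcer1g* and *Fcgr2b* r was 0.655, 0.599 and 0.335 (permutation p = 0.132, 0.167 and 0.463), and it dropped to 0.301, 0.123 and -0.143 without those tumors. In the Mrc1 gate r was 0.963 for *Fcgr4* and 0.933 for *Fcgr1* (permutation adjusted p = 0.00595 for both). The p values are adjusted over 10 relations. Sets 1 and 2, however, separated the tumors on all 3 measures. The list was at 5.14 or above in set 2 and at 4.92 or below in set 1. Taken as deviations from the means of the sets and permuted within them (144 arrangements), r was 0.945 for *Fcgr4* (exact permutation p = 0.0486, adjusted 0.116), 0.894 for *Fcer1g* (exact permutation p = 0.0556, adjusted 0.116) and 0.778 for *Fcgr1* (exact permutation p = 0.0694, adjusted 0.116). No relation passed adjustment within sets, in macrophages or in the Mrc1 gate. Within groups, r in macrophages was 0.933 for *Fcgr4* and 0.880 for *Fcgr1* (exact permutation adjusted p = 0.0868 and 0.0694), and in the Mrc1 gate 0.934 and 0.880 (exact permutation adjusted p = 0.0347 for both). These relations were chosen after the data were seen, and both measures come from the same libraries. The list also holds *Cxcl9*, *Cxcl10*, *Gbp5* and *Iigp1*, which set the Cxcl9 gate, the gate where *Fcgr4* was highest. The part of the Cxcl9 cells in these relations was not tested.

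**Figure D5:**
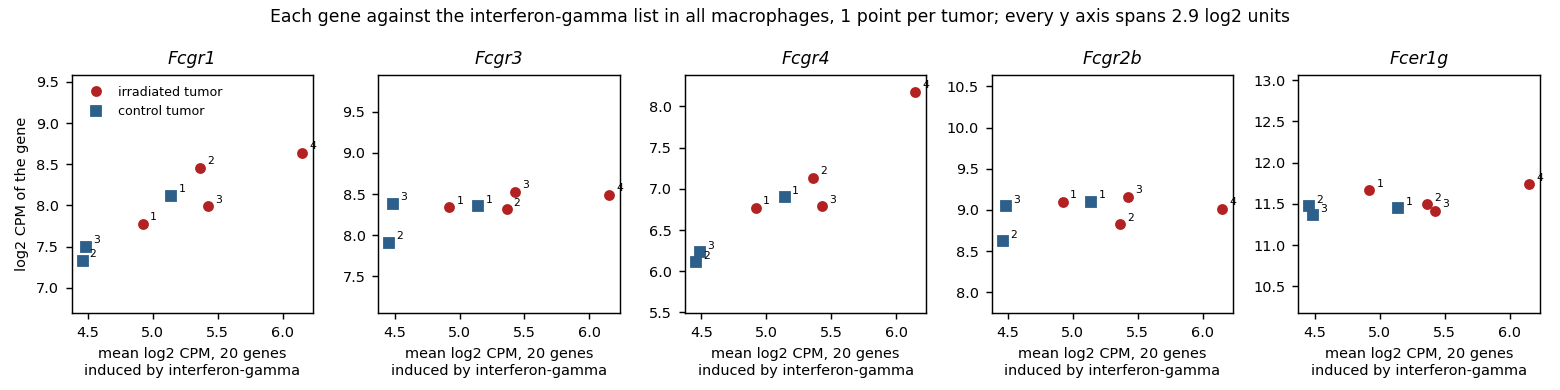
Log2 CPM of each gene against the mean log2 CPM of 20 interferon-gamma induced genes in macrophages, 1 point per tumor, with tumor numbers. All y axes have the same span. *Fcgr4* and *Fcgr1* climb with the list (pooled r = 0.959 and 0.930), and the tumors of set 1 (irradiated 1, controls 2 and 3) lie to the left of those of set 2.

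The genes whose pattern was most like that of each member were found over 73 sums of 12 gates in the 7 tumors, among 8853 genes. These sums share libraries and are not replicates, and most of any correlation comes from the gap between myeloid and other cells. *Fcer1g* was most like *Tyrobp* (r = 0.988), which encodes DAP12, the other ITAM adaptor of myeloid cells, followed by the lysosomal protease gene *Ctss* (0.984) and *Rbm47* (0.984). *Fcgr2b* was most like *Cd300c2* (0.989), the complement receptor gene *C3ar1* (0.988) and the integrin gene *Itgam* (0.985). *Fcgr3* was nearest to *C3ar1* (0.983), the chemokine gene *Ccl12* (0.979) and *Cacna1d* (0.979). *Fcgr1* was nearest to *Gm21188* (0.984), *Klra2* (0.980) and the lectin gene *Clec4a1* (0.980). *Fcgr4* was nearest to *Gm35154* (0.978), *Klra2* (0.975) and the phagosomal metal transporter gene *Slc11a1* (0.975). Among the members, *Fcgr3* with *Fcgr2b* (0.982) and *Fcgr1* with *Fcgr4* (0.978) were the closest pairs.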

How the data were processed

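Single-cell 3′ RNA libraries of 7 tumors were analyzed. The deposited files hold raw UMI counts, which the authors obtained per gene and called cell. Their headers name Cell Ranger 8.0.0, and the labels name mm10. Whether introns were counted is not given in the sources used here. The smallest deposited cell had 500 UMIs. Cells were removed where a quality measure lay over 3 median absolute deviations from the median of that library. Gates counted detected markers (at least 9 of 14 for macrophages). Doublets called with Scrublet (2.14%) were kept, and 1281 cells lay at the edge of the macrophage gate.

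Counts were summed per tumor and gate and used where a tumor had at least 20 cells. They were fitted with edgeR 4.0.16 (filterByExpr, TMM, robust quasi-likelihood test, Benjamini-Hochberg over all genes tested; R 4.3.3), with DESeq2 1.42.0 as an alternative. CPM are UMIs per 1000000 UMIs of the gate, and log2 CPM adds a prior count of 2. Permutation and sign-change tests were exact and two-sided. Thinning to 3000 UMIs left out 16.3% of cells. On simulated macrophage counts with 200 of 13002 genes changed by 2 log2 units, the fit recovered 91.5% with 199 calls. The log2 fold changes of the 5 members in macrophages were smaller, at 0.08 to 0.88, and recovery of changes of that size was not tested. A count of 0 was given a limit of 3 UMIs. Whether tumors within a group share a litter or cage is not given in the sources used here.

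Named genes are the 5 members, the 3 genes most correlated with each (mean of at least 10 CPM, gate markers left out) and, from each pathway list, the 3 genes that differed most in macrophages by absolute log2 fold change. One gene that this rule names is not reported here. The members and lists were chosen with earlier results of these data known. Alternatives were DESeq2 size factors, no count filter, DESeq2, leaving out each tumor, a replicate block and a term for the library set. The others were all deposited cells, stricter gates, gates on thinned cells and removal of doublets. The tests in macrophage subsets were added after the data were seen.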

Additional observations from a re-analysis of the deposited data

Results flagged for a closer look

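In 3 gates, 1 of the 4 irradiated tumors stood apart from the others by the Dixon ratio of its gap to the whole range. *Fcer1g* in Cxcl9 macrophages had a ratio of 0.955, with irradiated 2 low at 2988 CPM against 3442 to 3463. The activating to inhibitory ratio in inflammatory macrophages had 0.909, with irradiated 3 low at 0.29 on the log2 scale. In cycling macrophages *Fcgr4* had 0.874, with irradiated 4 high at 174 CPM, and *Fcgr2b* had 0.844, with irradiated 2 low at 291 CPM. Such a ratio is passed in about 1 of 20 groups by chance, and 36 groups were examined.

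The effect of irradiation on *Fcgr1* differed between the Cxcl9 and the Mrc1 gates by -0.77 log2 units, and that on *Fcgr4* by -0.91. The exact permutation p of each difference was 0.0286, and the adjusted value over 25 tests was 0.357, so neither passed adjustment. Control tumors had only 20 to 32 cells each in the Cxcl9 gate.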

How the results depend on the processing

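No Fc receptor gene was called in all macrophages, Ly6c2 monocytes or dendritic cells under any alternative that could be run. In macrophages the log2 fold changes stayed positive for *Fcgr4* (0.44 to 1.15, edgeR or DESeq2 adjusted p from 0.311), *Fcgr1* (0.31 to 0.82, adjusted p from 0.297), *Fcgr3* and *Fcer1g* under every alternative, and that of *Fcgr2b* ran from -0.053 (without control 2) to 0.157 when 1 tumor was left out. The count of 1 gene called in all macrophages was 3 with DESeq2. It was 0 with the replicate block, the set term, all deposited cells, stricter gates or thinned gates. Leaving out 1 tumor gave 0 to 1, with 1 gene called without irradiated 4. The count was 0 without each of irradiated 1, 2 and 3 and controls 1, 2 and 3.

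Small differences turned direction. In monocytes *Fcgr2b* ran from -0.047 (without irradiated 3) to 0.395 when 1 tumor was left out, and *Fcer1g* was 0.035 with no count filter and 0.12 with the set term. In dendritic cells *Fcgr1* was -0.47 with the replicate block and ran from -0.356 (without irradiated 4) to 0.557 when 1 tumor was left out. *Fcgr2b* was -0.035 with the set term, -0.064 with stricter gates and -0.096 to 0.368 with 1 tumor left out (negative without irradiated 3 or control 3). *Fcer1g* was 0.076 with the block and -0.377 to 0.077 with 1 tumor left out (positive without control 2). The monocyte activating to inhibitory difference was 0.043 with the set term and 0.069 for *Fcgr4* alone, and ran from -0.24 to 0.30 when 1 tumor was left out, turning positive without irradiated 3 (0.30) or control 3 (0.15). In all macrophages it was 0.20 to 0.70 under the alternatives. In cycling macrophages the alternatives were chosen after the data were seen. There 1 member (*Fcgr1*) was called with no count filter, a setting that called 88 of 18738 genes, and 0 under each other alternative. In the same gate *Fcgr2b* ran from -0.065 (without control 2) to 0.198 over the alternatives. The causes were not tested. The correlations of *Fcgr4* and *Fcgr1* with the interferon-gamma list in macrophages no longer passed adjustment within the library sets or within groups. Same-numbered tumors correlated negatively in macrophages (-0.617, -0.357 and -0.168). Each shared number joins a tumor of set 1 with a tumor of set 2, so this check cannot decide whether the numbers pair the tumors. The replicate block changed no member's call. No neighboring pair of gates passed adjustment under any alternative, and up to 6 pairs turned direction. Leaving out a tumor raises the smallest p that the sign-change test allows, so those settings could not decide whether a step holds. NK cells could not be tested under any setting, and stricter and thinned gates left too few monocytes. Depth limits the dendritic and NK values, where *Fcgr3* and *Fcgr4* had at most 15 UMIs per tumor.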
